A study of Mus musculus with 30 samples.

Results

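The levels of 9 long noncoding RNAs were followed in nuclear RNA of mouse embryonic stem cells (mESCs), namely the nuclear-retained Malat1 and Neat1 and the imprinted Kcnq1ot1, Airn, Meg3, Rian, Mirg, Peg13 and H19. They are 9 of the 55401 genes in each of 4 deposited count tables, were chosen by name and were found by gene identifier. The tables hold 30 libraries in 15 groups of 2 replicates. Parental CGR8 mESCs were left untreated or given 500 µM indole-3-acetic acid (IAA), an auxin, for 4 h. SYAT cells are CGR8 cells in which both Srcap alleles carry YPet-AID, a fluorescent protein with an auxin-inducible degron, and which express the auxin receptor OsTir1. They were kept in auxinole, an inhibitor of that receptor, as control or collected 2, 4, 6 or 8 h after adding 500 µM IAA, which degrades SRCAP, the catalytic subunit of a complex that places the histone variant H2A.Z. SYAT cells that also carried mCherry fused to a mitotic degron were given IAA for 1 h or control medium and sorted in early G1 (EG1) or late G1 (LG1). The last table holds SYAT cells with a doxycycline-inducible wild-type (wtSRCAP-mCherry) or catalytically dead (cdSRCAP-mCherry) transgene, 1 clone of each. They received 1 µg/mL doxycycline for 24 h, with or without IAA for 4 h, and were sorted for mCherry. All cells had been moved to serum and LIF medium before the experiments, and the groups of the last 3 tables all carry the degron and OsTir1. Per the study's methods, replicates came from independent cultures and treatments.

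Malat1 and Neat1 are made side by side and stay in the nucleus, Malat1 in splicing speckles and Neat1 as the scaffold of paraspeckles. Imprinted genes are transcribed from the allele of only one parent, and the noncoding RNA of an imprinted domain is often made from the chromosome on which the protein-coding neighbours are silent. Kcnq1ot1 and Airn are paternally expressed RNAs that run antisense through Kcnq1 and Igf2r and silence genes beside them in cis. Meg3, Rian and Mirg come from the maternal chromosome of the Dlk1-Dio3 domain and carry small RNAs, H19 is the maternal RNA beside Igf2, and Peg13 is a paternal RNA within Trappc9. In cultured mESCs the Dlk1-Dio3 RNAs are known to be lost in some lines and clones.

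Coordinates are those of GRCm38 (mm10). Malat1 (ENSMUSG00000092341.3) lies on chromosome 19 from 5795690 to 5802672 and Neat1 (ENSMUSG00000092274.3) from 5824708 to 5845478, both on the minus strand. Kcnq1ot1 (ENSMUSG00000101609.2) covers chromosome 7 from 143203458 to 143296549 on the minus strand as 1 exon of 93092 bases, antisense to Kcnq1. Airn (ENSMUSG00000078247.5) covers chromosome 17 from 12741311 to 12860136 on the plus strand, with 3597 exonic bases in a span of 118826, and overlaps Igf2r on the other strand. Meg3 (ENSMUSG00000021268.17), Rian (ENSMUSG00000097451.11) and Mirg (ENSMUSG00000097391.8) follow each other on the plus strand of chromosome 12, from 109541001 to 109571726, 109603940 to 109661716 and 109729764 to 109749460. Peg13 (ENSMUSG00000106847.1, chromosome 15 from 72805600 to 72810324, minus strand) lies within an intron of Trappc9 on the same strand. H19 (ENSMUSG00000000031.16) lies on chromosome 7 from 142575529 to 142578143 on the minus strand. The strand setting of the counting is not given in the sources used here, so reads of Kcnq1ot1 and Kcnq1, or of Airn and Igf2r, cannot be told apart with certainty. Peg13 and Trappc9 share a strand, so reads of unspliced Trappc9 within Peg13 cannot be told from Peg13 reads by strand at all.

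The windows from 250 bases before to 50 bases after the start are shown for the members on which the results turn most and for which RefSeq (GRCm38.p6) held one. A window was at hand for 6 of the 9 members. Capitals mark TGCCGC or its reverse complement GCGGCA, the core of the motif bound by Zfp57, a factor that maintains imprints. Each window is 5′ to 3′ on the strand of the gene.
Meg3 (chr12:109540746-109541045, plus strand): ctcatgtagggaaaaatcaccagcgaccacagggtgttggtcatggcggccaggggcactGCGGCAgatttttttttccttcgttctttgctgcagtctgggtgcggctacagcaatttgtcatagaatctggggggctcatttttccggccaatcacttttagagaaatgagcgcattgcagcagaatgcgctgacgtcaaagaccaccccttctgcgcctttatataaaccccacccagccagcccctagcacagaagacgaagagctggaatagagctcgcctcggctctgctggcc
Kcnq1ot1 (chr7:143296498-143296797, minus strand): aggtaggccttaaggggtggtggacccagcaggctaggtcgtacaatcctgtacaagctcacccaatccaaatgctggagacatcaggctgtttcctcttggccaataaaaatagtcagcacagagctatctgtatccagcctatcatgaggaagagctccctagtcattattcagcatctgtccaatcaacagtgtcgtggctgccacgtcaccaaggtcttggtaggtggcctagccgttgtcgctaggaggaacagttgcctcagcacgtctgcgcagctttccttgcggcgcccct
Malat1 (chr19:5802623-5802922, minus strand): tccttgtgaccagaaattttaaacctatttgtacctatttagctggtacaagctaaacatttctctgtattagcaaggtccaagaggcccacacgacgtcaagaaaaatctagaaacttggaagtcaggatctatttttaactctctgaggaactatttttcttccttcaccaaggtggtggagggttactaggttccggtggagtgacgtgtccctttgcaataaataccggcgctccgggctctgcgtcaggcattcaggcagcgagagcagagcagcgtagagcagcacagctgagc
The motif occurred 1 time in this Meg3 window and in none of the other windows of members. Of 32851 RefSeq windows of the same length, 11.6% held it. The Meg3, Kcnq1ot1 and Malat1 windows held 13, 9 and 10 CpG dinucleotides, beside a median of 7 over all windows, while the Rian window held 0.

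Within the Dlk1-Dio3 RNAs and H19, RefSeq places microRNA hairpins on the same strand, 1 in Meg3, 3 in Rian, 14 in Mirg and 1 in H19. The first mature microRNA of each host is shown because these 4 hosts differed most between the tables. Capitals mark the seed, bases 2 to 8. The microRNAs themselves were not measured.
miR-770-5p in Meg3: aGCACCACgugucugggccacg
miR-341-5p in Rian: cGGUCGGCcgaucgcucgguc
miR-382-5p in Mirg: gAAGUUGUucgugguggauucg
miR-675-5p in H19: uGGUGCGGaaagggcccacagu
No seed was shared among them.

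Exon columns summed to 12236493 to 60214521 counts per library. Levels are exon CPM, counts per 1000000 of the effective library size, and levels of different genes are compared only per kilobase of exon. In SYAT IAA 6h replicate 2, mitochondrially encoded mRNAs took 0.280% of exon counts, beside 1.07% to 1.27% in the other SYAT libraries. In wtSRCAP IAA 4h replicate 1 they took 0.188%, and 1 gene took 23.9% of all counts. Fold changes that use these 2 libraries are also given without them. Markers of pluripotent cells, 8 of 8 tested in every table, summed to 3178 to 3938 CPM in CGR8, 1524 to 2720 CPM in the SYAT time course, 1508 to 2135 CPM in sorted cells and 2447 to 4162 CPM in wtSRCAP and cdSRCAP cells. Those of fibroblasts summed to 52.0 CPM or less, with Postn at 0 in all libraries, and those of extraembryonic endoderm to 248 to 565 CPM. In CGR8 controls, Sparc (mean 401 CPM) and Col4a1 (108 CPM) made up most of the latter sum. Gata4, Dab2, Sox17 and Sox7 stood there at 2.66, 5.17, 1.15 and 2.28 CPM. Neural and mesodermal markers, 5 of 6 tested, summed to 24.6 to 28.0 CPM in CGR8 controls and 33.6 to 34.3 CPM after IAA. In SYAT cells the sum was 10.5 to 13.3 CPM in controls and 16.1 to 23.2 CPM after IAA. It moved from 10.5 to 13.7 CPM to 17.6 to 19.8 CPM in wtSRCAP cells and from 13.7 to 18.0 CPM to 22.1 to 28.1 CPM in cdSRCAP cells. In CGR8, Pax6 alone was higher after IAA (log2 fold change 0.54, from 19.9 to 28.9 CPM). Mixl1, Tbx6, T and Sox1 stood at -0.48, -0.0045, -0.06 and -0.52. The median log2 fold change of the markers tested was -0.06 in CGR8, -0.03 in wtSRCAP and 0.45 in cdSRCAP cells. In SYAT cells it was 0.22, 0.49, 0.47 and 0.76 at 2, 4, 6 and 8 h. The part of these markers in the results below was not tested. The tables were normalized separately, so levels in different tables are given side by side without a test.

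Malat1 was the most abundant member per length in every table. Its median was 249.9 CPM per kilobase in CGR8, 370.9 in the SYAT time course, 837.9 in the sorted cells and 459.8 in the wtSRCAP and cdSRCAP cells. Kcnq1ot1 stood at 1.41, 2.51, 3.53 and 5.53 CPM per kilobase and Neat1 at 0.850, 1.76, 4.37 and 2.57. In CGR8, H19 (3.21 CPM per kilobase) and Rian (2.61) stood above Kcnq1ot1 and Neat1, whereas in the other tables both stood below. The medians of Airn and Peg13 were under 1 CPM per kilobase in all tables.

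**Figure D1:**
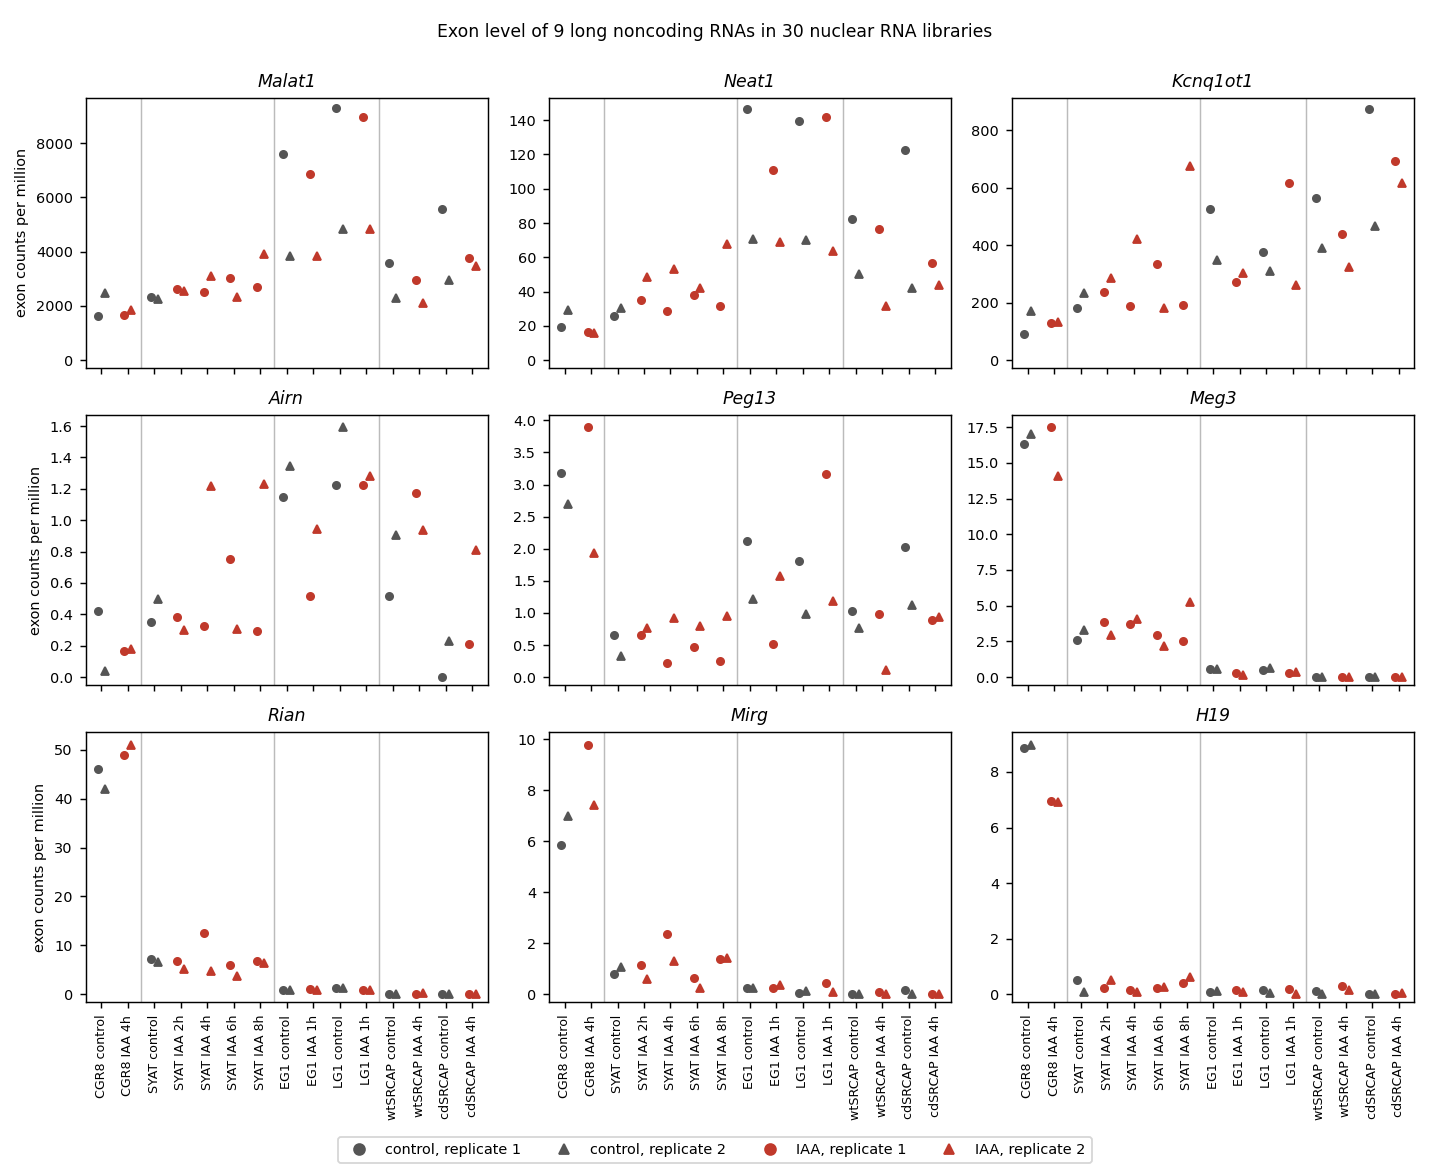
Exon level in CPM (vertical axes, linear) of each of the 9 RNAs in each library, by group and replicate, with grey lines between the 4 separately normalized tables. Meg3, Rian, Mirg and H19 lie highest in the 4 CGR8 libraries, and Malat1 in the sorted cells splits by replicate number.

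The Dlk1-Dio3 RNAs and H19 differed in level between the tables. Meg3 lay between 14.1 and 17.5 CPM in the 4 CGR8 libraries, between 2.15 and 5.26 in the 10 SYAT libraries and between 0.180 and 0.608 in the 8 sorted libraries. In the wtSRCAP and cdSRCAP cells, Meg3 had 0 counts in all 8 exon columns and in all 8 intron columns. A count of 0 allows up to 3 counts, which is 0.116 to 0.293 CPM in these libraries and covers counting error only. Rian, which carries many small nucleolar RNAs, followed the same order with 42.1 to 51.1 CPM, 3.62 to 12.6 CPM and 0.766 to 1.17 CPM, and 7 counts in all in the last table. Mirg, a host of microRNAs, spanned 5.85 to 9.80 CPM in CGR8, 0.246 to 2.37 CPM in SYAT cells and 0.0489 to 0.452 CPM in sorted cells, and had 3 counts in the last table. None of these ranges overlapped between CGR8 and any other table, and those of Meg3 and Rian did not overlap between SYAT and sorted cells either. The share of all genes without overlap between tables is not at hand. The lack of overlap is therefore not read as a result about the members.

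H19 spanned 6.93 to 8.99 CPM in CGR8 and at most 0.616 CPM in SYAT cells, 0.181 CPM in sorted cells and 0.293 CPM in the last table. The CGR8 libraries thus carried H19 counts of 376 to 483, beside 2 to 15 in the SYAT libraries. Its neighbour Igf2, a growth factor gene, had a median of 0.188 CPM in CGR8 and of 0.654, 0.742 and 0.519 CPM in the other tables. Among the protein-coding genes of the Dlk1-Dio3 domain, Rtl1, which lies antisense to small RNAs of that domain, had a median of 5.14 CPM in CGR8 and of 1.07, 0.183 and 0.447 in the others. Dlk1, a paternally expressed Notch-like ligand, had medians of 2.42, 5.09, 5.27 and 2.13 CPM, and Dio3, a deiodinase, of 2.12, 3.36, 1.39 and 1.13. In bulk RNA, fewer cells that express a gene and less RNA per cell cannot be told apart. Depending on the pair of tables, the engineering of the cells, the sort or the depth differed, and their parts cannot be told apart here.

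As a control for IAA itself, CGR8 cells without a degron were compared after 4 h of IAA. Of the 8 members tested (Airn was too low), 0 were called in edgeR, where 0.00988% of 20250 genes were. A call here means a log2 fold change beyond 0.5 in size together with an adjusted p under 0.05. DESeq2 also called 0 members and 0.691% of all genes, and 1 member, Neat1, had an unadjusted p under 0.05 in both tools, beside 9.16% of all genes in edgeR. Neat1 stood at 19.2 and 29.4 CPM in the controls and at 16.1 and 15.6 CPM after IAA, so the groups did not overlap. Its log2 fold change was -0.62 (SE 0.216, 95% interval -1.11 to -0.12, edgeR adjusted p = 0.540). Without control replicate 1 it was -0.88. Mitochondrially encoded mRNAs moved with IAA in the same libraries, taking 0.450% and 0.936% of the exon total without IAA and 0.933% and 1.53% with it. Of the 7 tested, 5 had an unadjusted p under 0.05, all higher after IAA, with a median log2 fold change of 0.85 for the 7, and their part in the Neat1 difference was not tested. Among the marker genes DESeq2 called Nanog here, and edgeR called 0.

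Malat1 stood at 1634 and 2469 CPM in CGR8 controls and at 1644 and 1847 CPM after IAA, a log2 fold change of -0.23 (SE 0.188). The treated libraries lay within the span of the controls. Kcnq1ot1 stood at 90.6 and 172.5 CPM in the controls and at 128.4 and 133.6 CPM after IAA, and its log2 fold change was -0.01 (SE 0.256). The value rested on the difference between the controls, since without control replicate 2 the log2 fold change was 0.54. H19 was lower in both treated libraries (6.94 and 6.93 CPM against 8.86 and 8.99 CPM), with a log2 fold change of -0.36 (SE 0.195, adjusted p = 0.602). Rian and Mirg were higher in both treated libraries, with log2 fold changes of 0.18 (SE 0.140) and 0.42 (SE 0.230). Groups did not overlap for 4 of the members tested, as for 42.2% of all genes.

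In the SYAT time course, all 9 members were tested, and 0 passed the thresholds at 2, 4, 6 or 8 h in edgeR or in DESeq2. DESeq2 gave no adjusted p for Airn, Peg13 and H19 at any time, nor for Mirg at 4, 6 and 8 h, so that these could not be called there. The percentages of 19205 genes that passed were 0, 0, 0.0677 and 0.00521 in edgeR and 0.0469, 0.953, 3.37 and 2.32 in DESeq2. At an unadjusted p under 0.05, 0 members passed at 2, 4 and 6 h, where 3.92%, 9.09% and 16.1% of all genes did. At 8 h, 2 members passed in both tools, Malat1 and Neat1, beside 13.6% of all genes in edgeR. The edgeR fit here had no replicate block, a term for the replicate number. With the block, the unadjusted edgeR p of Neat1 was 0.0329 at 2 h, 0.0418 at 6 h and 0.00780 at 8 h (adjusted 0.659, 0.195 and 0.101). That of Malat1 at 8 h was 0.0286 (adjusted 0.191), and no other member was under 0.05. The share of all genes under 0.05 with the block is not at hand, so these p-values are not read as results about the members. Groups did not overlap with the control for 3 members at each time, as for 39.6%, 45.9%, 43.6% and 44.9% of all genes at 2, 4, 6 and 8 h.

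Malat1 stood at 2330.3 and 2257 CPM in SYAT controls. After IAA it stood at 2638 and 2543 CPM at 2 h, at 2520.4 and 3092 CPM at 4 h, at 3030.1 and 2309 CPM at 6 h and at 2711 and 3924 CPM at 8 h. Only SYAT IAA 6h replicate 2 of the 8 treated libraries lay within the span of the controls, and that is the library with few mitochondrial counts. The log2 fold changes were 0.18 (SE 0.198), 0.29 (SE 0.198), 0.22 (SE 0.198) and 0.53 (SE 0.199), and at 8 h the unadjusted edgeR p was 0.0229 and the adjusted p 0.278. Without replicate 2 the 8 h value was 0.24, and without replicate 2 the 6 h value was 0.41.

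Neat1 stood at 25.7 and 30.5 CPM in SYAT controls. After IAA it stood at 35.1 and 48.5 CPM at 2 h, at 28.5 and 53.0 CPM at 4 h, at 38.1 and 42.1 CPM at 6 h and at 31.8 and 67.6 CPM at 8 h. Every treated library but SYAT IAA 4h replicate 1 lay above both controls. The log2 fold changes were 0.57 (SE 0.358), 0.54 (SE 0.358), 0.51 (SE 0.359) and 0.82 (SE 0.359), and at 8 h the unadjusted edgeR p was 0.0441 and the adjusted p 0.352. Replicate 2 carried most of this at 4 and 8 h, since without it the log2 fold changes were 0.02 and 0.18, while at 6 h the value without replicate 2 was 0.44. The 4 comparisons share the same control libraries.

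**Figure D2:**
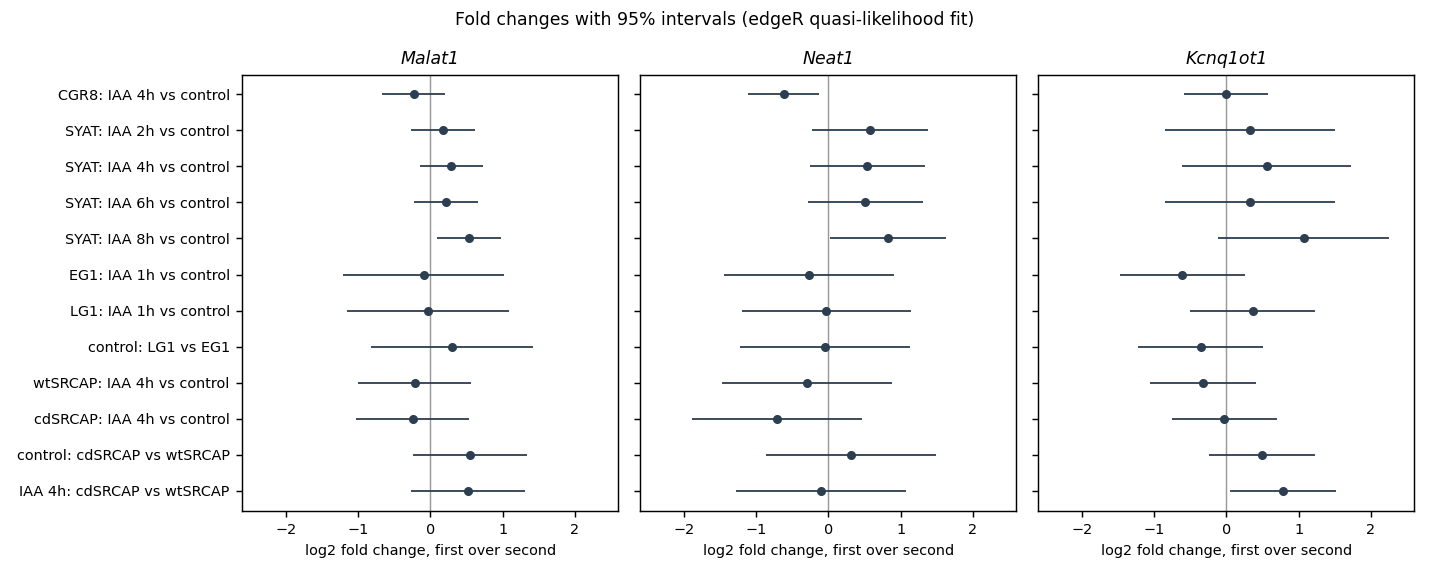
Log2 fold changes (horizontal axes, first group over second) of Malat1, Neat1 and Kcnq1ot1 in the 12 pairwise comparisons, with points for the edgeR estimate and lines for the 95% interval. In this fit, which has no replicate block, intervals clear of 0 occur for Neat1 in CGR8 and at 8 h, Malat1 at 8 h, and Kcnq1ot1 between cdSRCAP and wtSRCAP under IAA. None of these passed after adjustment in it.

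Of Malat1, Neat1 and Kcnq1ot1, the last had the largest standard errors in the time course. It stood at 181.6 and 232.4 CPM in SYAT controls, at 235.7 and 284.5 CPM at 2 h, at 188.5 and 420.3 CPM at 4 h, at 336.2 and 182.1 CPM at 6 h and at 192.6 and 675.5 CPM at 8 h. The 8 h pair came from 3935 and 16439 exon counts. Its log2 fold changes were 0.33 (SE 0.527), 0.56 (SE 0.528), 0.32 (SE 0.527) and 1.07 (SE 0.531), and the 95% interval at 8 h ran from -0.11 to 2.25 (edgeR adjusted p = 0.416). Without replicate 2 the 4 h and 8 h values turned to -0.14 and -0.10, and without replicate 1 the 6 h value turned to -0.18. Without replicate 2, the library with few mitochondrial counts, the 6 h value was 0.70.

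A library property moved with Kcnq1ot1, the sum of the intron columns per 100 exon counts. In the SYAT and EG1 libraries these columns also held exon reads, so there the sum is not a measure of introns alone. Malat1, for example, had 46029 intron beside 46040 exon counts in SYAT control replicate 1. In the time course the sum per 100 exon counts was 119.2 in SYAT IAA 8h replicate 2, 109.8 in SYAT IAA 4h replicate 2 and 106.3 in SYAT IAA 6h replicate 1, the 3 libraries with the most Kcnq1ot1. It lay between 100.1 and 103.9 in the other 7. The same 3 libraries had the most Malat1 (3924, 3092 and 3030.1 CPM), and the first 2 of them the most Neat1 (67.6 and 53.0 CPM). In CGR8 the order of both measures was the same, with 8.55 and 13.2 in the controls and 10.8 and 12.1 after IAA. In EG1, LG1 and the wtSRCAP and cdSRCAP cells as well, the library with the highest Kcnq1ot1 level had the highest intron total, at 123.2, 35.8 and 33.1. Kcnq1ot1 itself is annotated as 1 exon and had no intron counts. The part of the intron total in the Kcnq1ot1, Malat1 and Neat1 differences was not tested.

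Airn exon counts were low, at 5 to 30 per SYAT library, and the gene was read mainly in intron columns, at 79 to 380 counts. The highest intron counts, 380 and 336, came from the same SYAT IAA 8h replicate 2 and SYAT IAA 4h replicate 2. Peg13 had 4 to 23 exon counts per SYAT library. No change of either RNA was called at these depths.

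Of the Dlk1-Dio3 RNAs in the time course, Mirg stood at 0.810 and 1.07 CPM in the controls, at 2.37 and 1.30 CPM at 4 h, at 0.638 and 0.246 CPM at 6 h and at 1.37 and 1.44 CPM at 8 h. Both libraries lay above the controls at 4 and 8 h and below them at 6 h. The log2 fold changes were 0.94 (SE 0.504), -1.08 (SE 0.582) and 0.57 (SE 0.508), from 4 to 44 counts per library, and without replicate 2 the 6 h value was -0.56. Rian stood at 7.29 and 6.48 CPM in the controls and at 6.03 and 3.62 CPM at 6 h (log2 fold change -0.51, SE 0.423), and without replicate 2 the 6 h value was -0.19. Meg3 lay between 2.15 and 5.26 CPM over all SYAT libraries, with no adjusted call. H19 had 2 to 15 counts per library.

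The proteins and genes that work with these RNAs were counted in the same fit. None of 16 speckle and paraspeckle protein genes passed the thresholds at any time in edgeR, and 1 did in DESeq2, Sfpq at 6 h. Unadjusted edgeR p-values under 0.05 were found for 0, 1, 5 and 4 of them at 2, 4, 6 and 8 h, all of them higher after IAA, beside 3.92%, 9.09%, 16.1% and 13.6% of all genes. At 6 h the median log2 fold change was 0.23 beside 0.01 over all genes. The lowest p-values at 6 h were those of Sfpq (0.54, SE 0.149, edgeR adjusted p = 0.136, DESeq2 adjusted p = 0.0497) and Pspc1 (0.55, SE 0.167, adjusted p = 0.167), both paraspeckle proteins. Without SYAT IAA 6h replicate 2, a comparison added for these lists after the data were seen, 2 of the 16 had an unadjusted p under 0.05 beside 12.3% of all genes, and DESeq2 called 0. Sfpq then stood at 0.31 (edgeR adjusted p = 0.270, DESeq2 adjusted p = 0.463) and Pspc1 at 0.32.

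Of 10 imprint maintenance factors, 0 passed in edgeR or DESeq2 and 1 had an unadjusted p under 0.05 at 6 h. That was Zfp445, a zinc finger protein of imprint control, at -0.39 (SE 0.136, adjusted p = 0.208), followed by its corepressor Trim28 at 0.60 (adjusted p = 0.331). Without replicate 2 Zfp445 stood at -0.37, and Trim28 turned to -0.03. Of 24 protein-coding neighbours, 17 were tested. In edgeR 0 passed, with unadjusted p-values under 0.05 for 1, 3, 2 and 4 of them at 2, 4, 6 and 8 h, and DESeq2 called Dio3 at 6 h and Igf2r at 8 h. At 6 h, Dio3 had a log2 fold change of 1.25 (SE 0.296, edgeR adjusted p = 0.0972, DESeq2 adjusted p = 0.0270), and the values at 2, 4 and 8 h were 0.72, 0.85 and 1.08. Without replicate 2 its 6 h value was 1.12, and the DESeq2 call was lost (adjusted p = 0.378). Igf2r, the receptor gene that Airn overlaps, stood at -0.33 (SE 0.128, adjusted p = 0.256) at 6 h, or -0.46 without replicate 2, and at -0.64 (SE 0.129, edgeR adjusted p = 0.0830, DESeq2 adjusted p = 0.0103) at 8 h. Of 12 other nuclear or imprinted noncoding RNAs, 11 were tested and 0 passed in edgeR or DESeq2, with 0, 1, 1 and 3 at an unadjusted edgeR p under 0.05 at 2, 4, 6 and 8 h, beside the same shares of all genes. The lowest p-values at 6 h were those of Tug1 (-0.43, SE 0.194) and Snhg14 (-0.62, adjusted p = 0.312), which stood at -0.37 and -0.22 without replicate 2. Over the 8 pairwise comparisons of the other tables, edgeR called 0 genes of these 4 lists, with 15 of 432 values (3.47%) at an unadjusted p under 0.05, where 1.02% to 9.16% of all genes were, and DESeq2 called 1, Xist.

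The sorted cells asked whether 1 h of IAA acts when SRCAP is lost through mitosis (EG1) or within G1 (LG1). Calls here needed an unadjusted p under 0.05 and a log2 fold change of more than 0.25 in size. In EG1, 1 of 7 members tested was called in edgeR, Meg3, where 1.22% of 21020 genes were. Meg3 had exon counts of 16 and 15 without IAA and of 6 and 4 with it, or 0.556 and 0.592 CPM against 0.283 and 0.180 CPM. Its log2 fold change was -1.29 (SE 0.500, 95% interval -2.45 to -0.14), for which the unadjusted edgeR p was 0.0326 and the adjusted p 1.00. DESeq2 called 0 members and 0.633% of all genes, and the edgeR call was lost without any 1 of the EG1 libraries. In LG1 Meg3 had 10 and 13 counts against 7 and 8 (log2 fold change -0.68, SE 0.485).

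Kcnq1ot1 in EG1 stood at 527.5 and 348.6 CPM in the controls and at 272.9 and 302.4 CPM after IAA. Both treated libraries lay below both controls, with a log2 fold change of -0.61 (SE 0.374, 95% interval -1.47 to 0.26). In LG1 it stood at 376.0 and 309.4 CPM against 618.6 and 262.4 CPM, a log2 fold change of 0.36 (SE 0.374), which turned to -0.38 without LG1 IAA 1h replicate 1. The interaction was 0.97 (SE 0.529, 95% interval -0.25 to 2.19). With a replicate block, a term for the replicate number in the fit, it was 0.83 (edgeR unadjusted p = 0.00381, adjusted p = 0.999). No member passed for the interaction in edgeR or DESeq2, and 0% of all genes passed at an adjusted p under 0.05. Without the block, 0 members had an unadjusted edgeR p under 0.05 beside 0.699% of all genes. With it, only Kcnq1ot1 did, and the share of all genes is not at hand.

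Airn in EG1 had exon counts of 33 and 34 without IAA and of 11 and 21 with it, a log2 fold change of -0.76 (SE 0.387, 95% interval -1.65 to 0.14). Its intron counts in the same libraries were 427 and 455 against 144 and 302. With the replicate block, edgeR called 3 members in EG1, Airn, Kcnq1ot1 and Meg3, beside 6.04% of all genes. Groups did not overlap for 3 members in EG1, Kcnq1ot1, Airn and Meg3, as for 21.4% of all genes. In LG1, 0 members were called in edgeR or DESeq2, where 1.02% of all genes were in edgeR and 0.366% in DESeq2, and 0 had an unadjusted p under 0.05. Groups there did not overlap for 2 members, Meg3 and Rian, as for 18.3% of all genes. Peg13 had 11 to 70 exon counts per sorted library and no call.

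Malat1 in the sorted cells followed the replicate number. It stood at 7604 and 3847 CPM in EG1 controls, at 6878 and 3849 CPM in EG1 with IAA, at 9288 and 4818 CPM in LG1 controls and at 8982 and 4824 CPM in LG1 with IAA. Replicate 1 was the higher in all 4 groups, and every replicate 1 library lay above every replicate 2 library. The log2 fold change was -0.09 (SE 0.483) for IAA in EG1 and 0.30 (SE 0.484) for LG1 over EG1 in control cells. Within each replicate number Malat1 was higher in LG1 than in EG1 controls, and the blocked edgeR fit gave 0.31 with an adjusted p of 0.00632. That lies below the fold threshold of 0.5, so Malat1 was not called, where 0.723% of all genes were called in the blocked fit. Neat1 also split by replicate number, at 111.2 to 146.5 CPM in replicate 1 and 63.5 to 70.5 CPM in replicate 2. Unlike Malat1, it was not higher in LG1 than in EG1 controls (139.5 and 70.2 CPM against 146.5 and 70.5 CPM). The replicate 1 libraries also had more mitochondrial mRNA, 1.60% to 1.76% of exon counts against 1.24% to 1.35%, whose part in the result was not tested.

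Between LG1 and EG1 controls, 0 of 7 members passed in edgeR or DESeq2, where 0% and 0.00476% of all genes passed. Without the block, 0 had an unadjusted edgeR p under 0.05 beside 1.44% of all genes. With it Malat1 had 4.57e-05, and the share of all genes under 0.05 is not at hand. Kcnq1ot1 had a log2 fold change of -0.35 (SE 0.374). Groups did not overlap for 1 member, Rian, as for 22.4% of all genes.

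As a share of exon counts, Malat1 took 0.153% to 0.253% in CGR8, 0.197% to 0.424% in the SYAT time course and 0.203% to 0.602% in the wtSRCAP and cdSRCAP cells. In the sorted cells it took 0.714% to 0.962% in replicate 1 and 0.378% to 0.455% in replicate 2. Neat1 took between 0.00160% in CGR8 IAA 4h replicate 2 and 0.0158% in EG1 control replicate 1. The library with the largest Malat1 share in the time course, SYAT IAA 8h replicate 2, also had the largest Neat1 share, 0.00731%.

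**Figure D3:**
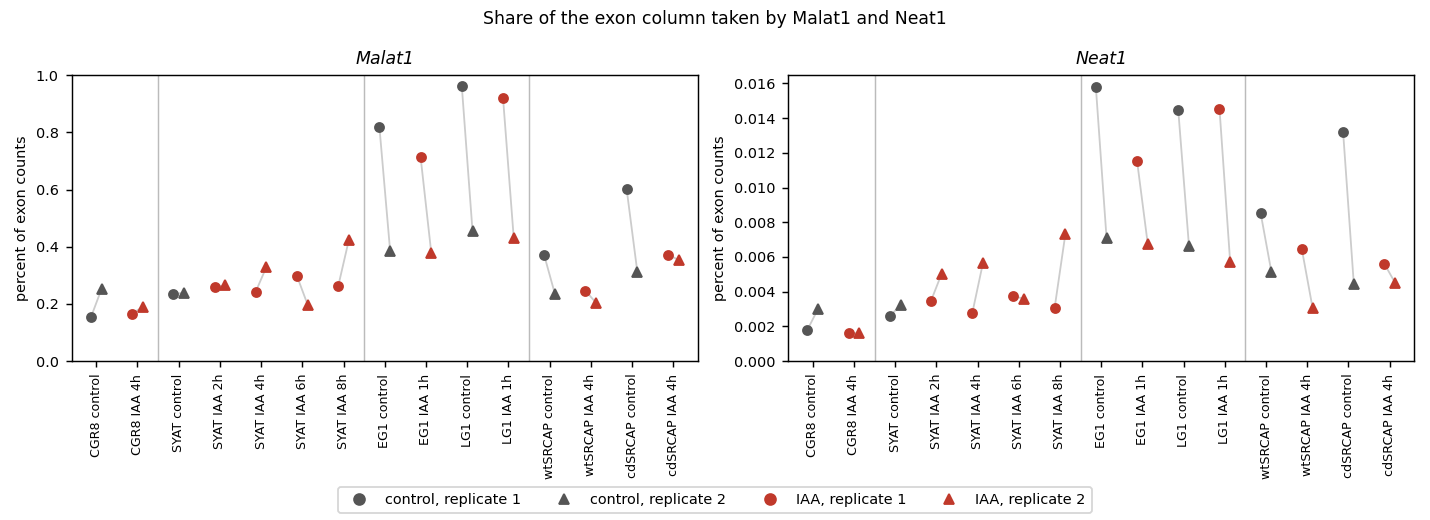
Percent of exon counts taken by Malat1 (left) and Neat1 (right) in each library, with grey lines joining the 2 replicates of a group and vertical lines between tables. In all 4 sorted groups replicate 1 lies above replicate 2, with Malat1 at 0.714% to 0.962% against 0.378% to 0.455%.

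The transgene cells asked whether wild-type or catalytically dead SRCAP alters the response to 4 h of IAA. Of the 9 members, 5 passed the filter on low counts, Malat1, Neat1, Kcnq1ot1, Airn and Peg13. In edgeR and in DESeq2, 0 of them passed the thresholds for IAA in wtSRCAP or in cdSRCAP cells, for cdSRCAP over wtSRCAP controls or for cdSRCAP over wtSRCAP under IAA. DESeq2 gave no adjusted p for Airn in any of these, nor for Peg13 within cdSRCAP cells or between the controls. The percentages of 19111 genes that passed were 0.00523, 0, 0 and 0.00523 in edgeR and 0.110, 0.115, 0.120 and 0.0419 in DESeq2. At an unadjusted p under 0.05 in edgeR, 0 members passed in the first 3 and 1 member, Kcnq1ot1, in the last, beside 7.40%, 5.64%, 3.82% and 5.03% of all genes. In DESeq2, Airn (cdSRCAP over wtSRCAP controls) and Kcnq1ot1 (the last comparison) did. Both fits had no replicate block. With it, the unadjusted edgeR p for IAA was 0.0466 for Kcnq1ot1 in wtSRCAP and 0.0141 for Neat1 in cdSRCAP cells (adjusted 0.272 and 0.194). Between the controls it was 0.00250 for Malat1, 0.00567 for Kcnq1ot1 and 0.0313 for Airn (adjusted 0.134, 0.194 and 0.419). Under IAA, cdSRCAP over wtSRCAP, it was 0.00152 for Malat1 (adjusted 0.0770) and 1.69e-05 for Kcnq1ot1. The shares of all genes with an unadjusted p under 0.05 are not at hand for the blocked fit or for DESeq2. These unadjusted p-values are therefore not read as results about the members.

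Kcnq1ot1 under IAA stood at 438.0 and 323.3 CPM in wtSRCAP cells and at 695.2 and 618.3 CPM in cdSRCAP cells. Both cdSRCAP libraries lay above both wtSRCAP libraries, with a log2 fold change of 0.79 (SE 0.326, 95% interval 0.05 to 1.52, edgeR adjusted p = 0.951). The edgeR fit with the replicate number as a block gave 0.81 and called it, with an adjusted p of 0.00597, where 1.41% of all genes were called. Without wtSRCAP IAA 4h replicate 1, the library that stands apart, it was 0.98. The intron totals per 100 exon counts moved with it, 16.4 and 14.8 in wtSRCAP and 23.5 and 24.8 in cdSRCAP cells, and their part in the difference was not tested.

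In the controls Kcnq1ot1 stood at 563.5 and 390.3 CPM with wtSRCAP and at 874.2 and 466.4 CPM with cdSRCAP, a log2 fold change of 0.49 (SE 0.325). The groups overlapped, and without cdSRCAP control replicate 1 the value was -0.03. For IAA in wtSRCAP cells the log2 fold change was -0.33 (SE 0.324), and -0.54 without wtSRCAP IAA 4h replicate 1. The interaction of IAA and transgene was 0.30 (SE 0.458), or 0.47 without that library, and for the interaction 0 members passed in edgeR or DESeq2, 0 had an unadjusted p under 0.05 beside 0.785% of all genes, and 0% of all genes passed.

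Malat1 stood at 3583 and 2288 CPM in wtSRCAP controls and at 2944 and 2096 CPM with IAA. In cdSRCAP cells it stood at 5586 and 2967 CPM in controls and at 3750.0 and 3454 CPM with IAA. The log2 fold changes were -0.22 (SE 0.350) for IAA in wtSRCAP and -0.25 (SE 0.350) in cdSRCAP cells, and 0.54 (SE 0.351) and 0.52 (SE 0.350) for cdSRCAP over wtSRCAP without and with IAA. In the last of these the groups did not overlap. Without wtSRCAP IAA 4h replicate 1 the values that use it were -0.46 and 0.74. Neat1 stood at 122.6 and 42.3 CPM in cdSRCAP controls and at 56.5 and 44.1 CPM with IAA, a log2 fold change of -0.71 (SE 0.525) that rested on cdSRCAP control replicate 1.

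Airn had 8 and 20 exon counts in wtSRCAP controls and 0 and 6 in cdSRCAP controls, a fitted log2 fold change of -2.33 (SE 1.10, 95% interval -4.80 to 0.14). Its intron columns held 172 and 183 against 170 and 175 counts in the same libraries. For IAA in cdSRCAP cells the fitted exon value was 1.85 (SE 1.11), from 0 and 6 counts to 4 and 18. The lower exon counts thus had no counterpart in the intron columns. Peg13 had 3 to 29 exon counts per library in these cells. Over the 4 comparisons groups did not overlap for 1, 1, 2 and 3 members, as for 34.4%, 37.7%, 29.8% and 33.7% of all genes.

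The genes whose levels were most like a member were found over 30 libraries and 17481 genes, as Pearson's r of log2 CPM centred within each table, a description that shares libraries and depth. For Malat1 they were Mbnl2 (0.90), Fam196a (0.86) and Ephx1 (0.85), and for Neat1 Dmpk (0.88), Chd2 (0.87) and Gm6284 (0.85). For Kcnq1ot1 they were Gm37018 (0.96), Olfr986 (0.95) and Xist (0.95), and for Peg13 Gm15558 (0.78), P2ry14 (0.76) and Gm13689 (0.76). Xist, the RNA of X inactivation, had a log2 fold change of 1.66 between cdSRCAP and wtSRCAP under IAA (edgeR adjusted p = 0.951, DESeq2 adjusted p = 0.00869). Without wtSRCAP IAA 4h replicate 1 it was 1.50, and the DESeq2 call was lost (adjusted p = 0.286). Malat1 had an r of 0.82 with Neat1 and of 0.74 with Kcnq1ot1. The other 5 members were not tested in all tables or had too few counts for this measure.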

How the data were processed

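Nuclear RNA was sequenced in 30 libraries. According to the study's methods, paired-end reads were aligned by the authors with STAR (mm10), and featureCounts assigned them to exons and introns of GENCODE vM25. SAMtools 1.10, Picard and DESeq2 are also named in the submitters' processing notes. The authors deposited whole-number counts per gene, with no normalization. Their tables of comparisons, with fold changes and p-values, were not used. Intron columns were not made alike. In the SYAT and EG1 libraries they held counts for 34.07% to 47.17% of annotated single-exon genes with 20 or more exon counts, and elsewhere for at most 0.0490%.

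Symbols for 55141 of 55401 genes came from GENCODE vM21. Genes were kept by filterByExpr (minimum count 10, minimum total 15), scaled by TMM and tested with edgeR 4.0.16 (quasi-likelihood, R 4.3.3), 1 fit per table on exon counts, with Benjamini-Hochberg adjustment. The fits were tested on simulated data. Same-numbered libraries deviated together in every pair of groups of the sorted (correlations 0.37 to 0.59) and transgene tables (0.26 to 0.38), and were read as paired there from the data, since the labels give no shared origin. DESeq2 1.42.0, RLE scaling, column totals without the members, no filter, a replicate block, only the groups compared, intron columns and each library left out were the alternatives. Each member that passed the filter of a table was tested in all its comparisons, and values are printed for a part of them. Named as well were called genes of the fixed lists or, with none called, the 2 of lowest p at 6 h, and the 3 genes most like each member tested in all tables (log2 CPM, prior count 2). The members and lists were chosen with earlier results of these data known.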

Additional observations from a re-analysis of the deposited data

How the results depend on the processing

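Of 607 values recomputed under the alternatives, 561 kept their direction and their side of the threshold, 13 passed it newly, 10 lost it and 23 turned sign. Under RLE scaling none of its 42 values changed side or sign. With no low-count filter, 3 members were called in SYAT cells at 8 h, Malat1, Neat1 and Kcnq1ot1. The share of all genes called under this setting is not at hand. It is also lacking for the intron columns and for the counts with a library left out below. Such counts are therefore not read as results about the members. With the replicate block, 3 were called in EG1 after IAA (Airn, Kcnq1ot1 and Meg3) and 1, Kcnq1ot1, between cdSRCAP and wtSRCAP under IAA, and the block changed no other count of called members. In CGR8 the deviations of same-numbered libraries correlated at 0.07. In the time course they correlated at 0.27 to 0.59 among control, 2, 4 and 8 h, and at -0.04 to 0.06 in pairs with 6 h. Whether the time course libraries were paired could not be decided from this. In EG1, DESeq2 and the intron columns each called 0 members. Meg3 in EG1 was also lost with no low-count filter, with only the groups compared and in 6 of the fits with a library left out. The intron columns called 3 members between LG1 and EG1 controls and gave Malat1 -19.43 there, which follows from the exon reads in the EG1 intron columns. They also turned Mirg in CGR8 to -0.36 and Meg3 in LG1 to 1.09. Kcnq1ot1 in CGR8 stood at 0.028 with the column total without members, 0.0030 with no low-count filter and 0.066 with the block. Where not stated, the cause was not tested.

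With single libraries left out, the count of called members ranged from 0 to 1 in CGR8, 0 to 2 in EG1 and 0 to 2 in LG1. The values that turned sign ranged as follows. Malat1 ranged from -0.49 to 0.10 in CGR8, from -0.57 to 0.50 in EG1, from -0.25 to 0.85 between LG1 and EG1 controls, from -0.51 to 0.13 in wtSRCAP cells and from -0.61 to 0.28 in cdSRCAP cells. Kcnq1ot1 ranged from -0.38 to 0.54 in CGR8, from -0.14 to 1.02, -0.18 to 0.70 and -0.10 to 1.70 in SYAT cells at 4, 6 and 8 h, from -0.38 to 0.87 in LG1, from -0.025 to 0.86 between cdSRCAP and wtSRCAP controls and from -0.066 to 0.82 for their interaction with IAA. Neat1 for IAA in cdSRCAP cells ranged from -1.27 to 0.25. With 2 libraries a group, a left-out library leaves a lone sample that is assumed to vary like the other groups. Airn in all tables, Mirg, Peg13 and H19 outside CGR8, and Meg3 and Rian in the sorted and transgene cells had at most 70 exon counts per library and are limited by depth. Trim28 at 6 h turned to -0.032 without SYAT IAA 6h replicate 2, an alternative chosen after seeing the data. Shares of Malat1 and Neat1 moved by less than the spread between libraries without mitochondrial mRNAs or with intron counts added.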
